A study of Mus musculus with 10 samples.

Results

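Late and early genes of the neutrophil granule programme were followed across 10 arrays of mouse liver sinusoidal endothelial cell (LSEC) isolates. The 10 genes were S100a8, S100a9, Lcn2, Ltf, Camp, Ngp, Cd177, Retnlg, Mpo and Elane, out of 24704 named genes on the array, and each was measured by 1 probe set. They were selected by gene symbol and were chosen from values already seen on these same arrays, the signals of the CDAA and Std arrays. Their differences between the diets are therefore given as a description, with no p-value of their own. How many of them passed the threshold of the fit over all genes is given only beside the share of all genes that did, and supports nothing.

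Female C57BL/6N mice, 10 weeks old at the start, were fed for 10 weeks either a choline-deficient, L-amino acid-defined (CDAA) diet with 31% of calories from fat and 1% cholesterol, or a control diet (Std). Each of the 5 CDAA and 5 Std arrays held RNA from the livers of 3 mice pooled before cell isolation, so the spread within a diet is between pools and not between animals. The isolates came from collagenase-perfused livers through a Nycodenz gradient and magnetic selection with CD146 beads, with no step that removed leukocytes named in the labels. The labels of the samples give a diet and no genotype, while the study's design text also mentions mice with endothelial loss of Gata4, so the genotype of the pools was taken as not stated and was not analysed here. All values are log2 signals from the deposited normalised table, so a difference of 1 is a doubling, and signals of different probe sets are not compared with each other.

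Neutrophils fill their granules in a fixed order while they mature in the bone marrow. Azurophil granules form first, at the promyelocyte stage, and hold myeloperoxidase (Mpo) and neutrophil elastase (Elane), whose transcripts are shut off before the cell enters the blood. Specific and then gelatinase granules form later, and the transcripts of lactoferrin (Ltf), lipocalin 2 (Lcn2), cathelicidin (Camp) and neutrophilic granule protein (Ngp) peak at the myelocyte and metamyelocyte stages, while the calcium-binding proteins S100a8 and S100a9 fill the cytosol of the mature cell. In the liver, neutrophils pass through or lodge in the sinusoids, next to the endothelial cells isolated here.

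A control pool, Std 3, stood apart from the other 4 Std arrays in these genes. It held the highest of the 10 signals for 10 of 10 genes, while over all 24704 genes it was the highest array for 9.89%. The genes were chosen from values already seen, so this count is a description. In Std 3 the mean of the 8 late genes (S100a8, S100a9, Lcn2, Ltf, Camp, Ngp, Cd177 and Retnlg) was 10.45, against 3.95 to 4.38 in the other 4 Std arrays and 5.65 to 7.08 in the CDAA arrays. The LSEC marker mean of Std 3 did not differ in the same way. The mean of 7 LSEC markers (Stab2, Stab1, Lyve1, Clec4g, Oit3, Gpr182 and Fcgr2b) was 12.49 in Std 3, 12.39 to 12.48 in the other Std arrays and 11.19 to 12.10 in the CDAA arrays. Clec4g read 13.32 in Std 1, 3, 4 and 5 alike, and Oit3 read 12.67 in Std 2, 3 and 5. Such bright, tied signals may not show a modest change in LSEC content, so an unchanged content is not shown. The diet differences of the 10 genes below are given with and without Std 3. For other genes, a difference given only once is from all arrays unless the text says otherwise. Leaving out each array in turn was planned, but Std 3 was singled out for its high values in neutrophil genes. In such genes the differences, adjusted p-values and counts without Std 3 therefore lean towards higher in CDAA and are descriptions.

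S100a8 and S100a9 encode the subunits of calprotectin, the most abundant cytosolic protein complex of neutrophils, which monocytes also make. S100a8 measured 8.91, 7.98, 8.96, 7.67 and 8.39 in CDAA 1 to 5, and 5.82, 5.39, 11.65, 6.04 and 5.70 in Std 1 to 5. S100a9 measured 7.61, 6.97, 7.71, 6.61 and 7.09 in CDAA 1 to 5, and 4.50, 4.44, 9.99, 4.98 and 4.65 in Std 1 to 5. In both genes Std 3 lay above every other array, the 5 CDAA arrays came next, and the other 4 Std arrays lay lowest with no overlap. The difference in S100a8 between CDAA and Std was 1.46 ± 0.99 (SE of the limma fit) over all arrays and 2.64 ± 0.26 without Std 3, a 6.25-fold higher signal. In S100a9 it was 1.49 ± 0.89 over all arrays and 2.56 ± 0.22 without Std 3, 5.90-fold. Above the mean of the other 4 Std arrays, Std 3 was 60.4-fold higher in S100a8 and 40.7-fold higher in S100a9. The pair are direct neighbours on chromosome 3, with 0 protein-coding genes between them in the RefSeq annotation.

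Lcn2 encodes lipocalin 2, a specific granule protein that binds bacterial siderophores and that hepatocytes and epithelia also make in inflammation. Its signal was 10.49, 9.80, 10.16, 9.66 and 10.25 in CDAA 1 to 5, and 6.69, 5.20, 12.90, 6.57 and 6.54 in Std 1 to 5. The CDAA arrays were close together (10.07 ± 0.34, SD, n = 5) and clear of the 4 lower Std arrays (6.25 ± 0.71, SD, n = 4), with Std 3 above all. The difference was 2.49 ± 1.11 over all arrays and 3.82 ± 0.29 without Std 3, the largest of the 10 genes in either case, and a 14.2-fold higher signal in CDAA without Std 3.

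Ltf and Ngp are products of the myelocyte stage. Ltf encodes lactoferrin, the iron-binding protein of specific granules, and Ngp a cystatin-like granule protein. Ltf gave 6.19, 4.13, 5.18, 4.34 and 4.48 in CDAA 1 to 5, and 3.33, 3.35, 11.19, 3.43 and 3.41 in Std 1 to 5. The 4 lower Std arrays lay within 3.33 to 3.43, the CDAA arrays all lay above them, and Std 3 was 5.01 above the next array, the largest gap that Std 3 had in any of the 24704 genes. The difference was −0.08 ± 1.31 over all arrays and 1.48 ± 0.34 without Std 3 (2.80-fold), and Std 3 was 225-fold above the other 4 Std arrays. In Ltf, Ngp, Camp and Cd177 the mean of those 4 arrays lay below the median signal of all genes, 3.89, and is not known to exceed background. Their differences and folds are therefore ratios of measured signals and may understate the change. Ngp gave 7.50, 4.63, 6.60, 4.45 and 4.74 in CDAA 1 to 5, and 4.02, 3.61, 10.90, 3.83 and 2.95 in Std 1 to 5. CDAA 1 and CDAA 3 were well above the other 3 CDAA arrays in Ngp, and the lowest CDAA array lay just above the highest of the 4 lower Std arrays. The difference in Ngp was 0.52 ± 1.30 over all arrays and 1.98 ± 0.58 without Std 3 (3.94-fold), and Std 3 was 157-fold above the other 4 Std arrays.

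Camp encodes the precursor of the antimicrobial peptide cathelicidin, which is cut free by serine proteases after release from specific granules. Camp read 3.48, 2.91, 3.51, 3.03 and 3.03 in CDAA 1 to 5, and 2.60, 2.68, 8.34, 2.60 and 2.71 in Std 1 to 5. Std 3 was again far above, by 4.83 over the next array, while the CDAA arrays exceeded the other 4 Std arrays by little, 0.54 ± 0.14 (1.46-fold). With Std 3 included the difference was −0.59 ± 0.93. Camp, Ngp and Ltf lie on the same chromosome, 9, with 8 protein-coding genes between Camp and Ngp and 20 between Ngp and Ltf.

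Cd177, a surface protein kept in specific granule membranes, and Retnlg, a resistin-like secreted protein, close the late group. Cd177 was at 5.56, 3.81, 4.45, 3.65 and 4.02 in CDAA 1 to 5, and at 3.86, 3.24, 8.84, 3.43 and 3.11 in Std 1 to 5. Here CDAA 2 and CDAA 4 lay below Std 1, so the diets overlapped even without Std 3. The difference in Cd177 was −0.20 ± 0.93 over all arrays and 0.89 ± 0.34 without Std 3 (1.85-fold). Retnlg was at 6.88, 5.48, 5.54, 5.79 and 5.72 in CDAA 1 to 5, and at 4.13, 3.73, 9.78, 4.14 and 3.59 in Std 1 to 5. All CDAA arrays of Retnlg lay above the 4 lower Std arrays, with CDAA 1 the highest of them. The difference in Retnlg was 0.81 ± 0.99 over all arrays and 1.99 ± 0.26 without Std 3 (3.96-fold).

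In the early genes, Mpo and Elane, the diets overlapped. Both products are stored in azurophil granules, Mpo as the enzyme that makes hypochlorous acid and Elane as a serine protease. Mpo was at 3.88, 3.29, 3.59, 3.68 and 3.29 in CDAA 1 to 5, and at 3.33, 3.42, 4.99, 3.24 and 3.79 in Std 1 to 5. Elane was at 3.27, 3.04, 2.97, 3.10 and 2.76 in CDAA 1 to 5, and at 3.08, 2.95, 4.21, 3.25 and 3.12 in Std 1 to 5. In both genes the CDAA arrays and the 4 lower Std arrays overlapped, and Std 3 was the highest array, by 1.12 in Mpo and 0.95 in Elane. Without Std 3 the difference was 0.10 ± 0.15 in Mpo and −0.07 ± 0.12 in Elane, and over all arrays −0.21 ± 0.29 and −0.30 ± 0.21. Std 3 exceeded the other 4 Std arrays 2.92-fold in Mpo and 2.16-fold in Elane. These signals lay at or below the median signal of all genes on these arrays, 3.89, except in Std 3. The deposited table carries no call of what is above background, and a change in a dim probe set can be understated. As for Ltf, Ngp, Camp and Cd177, this holds for the folds of Mpo and Elane.

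**Figure D1:**
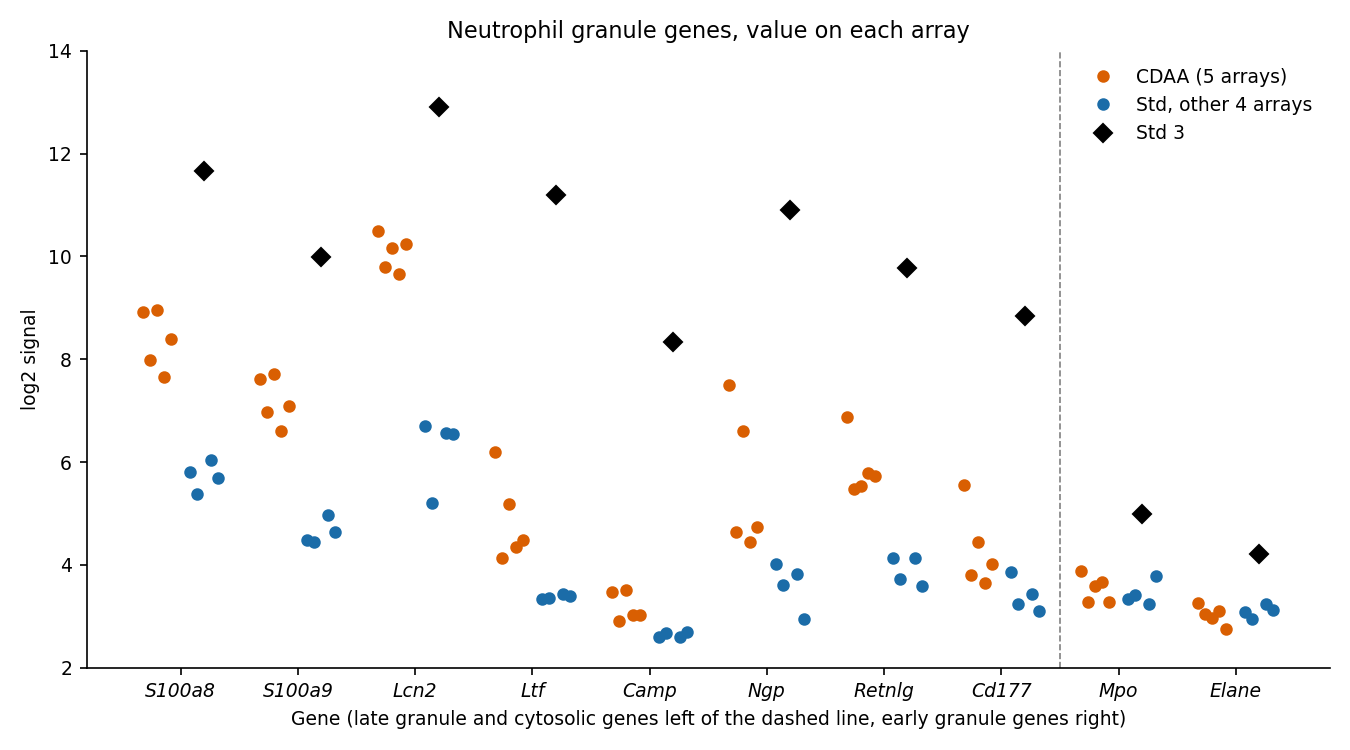
Log2 signal (vertical axis) of each of the 10 granule genes (horizontal axis) in the 5 CDAA and 5 Std arrays, each point 1 pool of 3 mice and Std 3 a black diamond. Std 3 is the highest array in all 10 genes, and in the late genes the CDAA arrays lie between it and the other 4 Std arrays, with overlap in Cd177.

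Promoters of the genes at the extremes are shown to set late beside early genes. The stretches are the 250 bases before the RefSeq start site (GRCm38.p6, plus strand) of Ltf and Ngp, with the largest measured excess in Std 3, and of both early genes. Capitals mark the letters TTNNGCAA in Ltf and Ngp, a form of the site bound by C/EBP factors, which drive specific granule genes. In Mpo and Elane they mark GAGGAAGT, a form of the site bound by the ETS factor PU.1. Both strands were searched, and the 2 motifs share no position in these promoters.
Ltf, chr9:111019042-111019291: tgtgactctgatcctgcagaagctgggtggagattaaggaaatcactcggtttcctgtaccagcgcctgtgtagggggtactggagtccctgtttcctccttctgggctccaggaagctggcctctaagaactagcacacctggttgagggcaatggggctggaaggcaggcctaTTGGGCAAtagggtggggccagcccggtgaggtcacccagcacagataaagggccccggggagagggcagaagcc
Ngp, chr9:110419558-110419807: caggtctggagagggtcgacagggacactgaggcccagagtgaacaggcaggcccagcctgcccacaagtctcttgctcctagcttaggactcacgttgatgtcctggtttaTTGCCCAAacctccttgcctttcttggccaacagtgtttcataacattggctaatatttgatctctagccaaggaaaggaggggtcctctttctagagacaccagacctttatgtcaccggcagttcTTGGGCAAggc
Mpo, chr11:87793534-87793783: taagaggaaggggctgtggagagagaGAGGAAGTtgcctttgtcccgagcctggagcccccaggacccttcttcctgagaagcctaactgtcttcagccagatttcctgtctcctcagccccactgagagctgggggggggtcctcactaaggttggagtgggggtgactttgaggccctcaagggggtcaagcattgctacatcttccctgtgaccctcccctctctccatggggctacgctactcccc
Elane, chr10:79886062-79886311: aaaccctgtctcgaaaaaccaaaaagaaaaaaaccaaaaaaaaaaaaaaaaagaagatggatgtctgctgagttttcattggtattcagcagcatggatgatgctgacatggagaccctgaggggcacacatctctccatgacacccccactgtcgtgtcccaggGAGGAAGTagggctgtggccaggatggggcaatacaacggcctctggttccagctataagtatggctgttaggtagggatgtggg

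The first base of the match lay 75 bases before the start site in Ltf, 138 and 11 bases before it in Ngp, 224 in Mpo and 85 in Elane. TTNNGCAA was present in the promoters of 5 of the 10 genes, all late (S100a9, Lcn2, Ltf, Ngp and Retnlg), and in 9.56% of 32851 RefSeq mouse promoters of the same length. GAGGAAGT was present in 3 of the 10 (S100a8, Mpo and Elane) and in 2.44% of all promoters. These motifs were picked after the promoters had been looked at, so the counts are a description and no test was made.

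Counted over the 10 genes, 0 passed a limma adjusted p of 0.05 with all arrays in the fit and 1 had an unadjusted p under 0.05. Over all 24704 genes 16.6% passed, 7.49% higher and 9.13% lower in CDAA. Without Std 3, 7 of the 10 passed, all higher in CDAA, and 8 had an unadjusted p under 0.05. The background there was 15.0% of all genes, 7.06% higher and 7.91% lower. The 3 that did not pass were Cd177, Mpo and Elane. The arrays of the diets did not overlap in 0 of 10 genes with Std 3 (13.9% of all genes, 6.16% higher in CDAA) and in the same 7 of 10 without it (17.2% of all genes, 7.82% higher in CDAA). Nothing is read from these counts, since the genes were chosen with this contrast known. The median difference of the 8 late genes was 0.67 over all arrays and 1.98 without Std 3, and that of all genes was −0.02 in either case.

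CDAA 1 and CDAA 3 also stood apart, on the other side of the comparison. For 8 of the 8 late genes the highest CDAA array was CDAA 1 or CDAA 3, and for 6 of them these were the 2 highest. The same arrays had the lowest LSEC marker means (11.51 and 11.19) and the highest means of 6 recruited macrophage markers (9.70 and 9.78, against 8.68 to 9.09 in the other CDAA arrays). Without CDAA 1, CDAA 3 and Std 3, 6 of the 10 genes passed the threshold, against 10.9% of all genes, 5.67% of all genes being called higher in CDAA. The gene that no longer passed was Camp.

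Late and early genes were then averaged per array, each mean being read only as a change between arrays. The late mean was 7.08, 5.71, 6.52, 5.65 and 5.96 in CDAA 1 to 5, and 4.37, 3.95, 10.45, 4.38 and 4.08 in Std 1 to 5. The early mean was 3.57, 3.17, 3.28, 3.39 and 3.03 in CDAA 1 to 5, and 3.21, 3.19, 4.60, 3.24 and 3.46 in Std 1 to 5. Relative to the mean of the 4 lower Std arrays, the late mean was 1.45 to 2.88 higher in the CDAA arrays and 6.25 higher in Std 3. The early mean, on the same scale, lay from −0.25 to 0.30 in the CDAA arrays and at 1.33 in Std 3. The late change therefore exceeded the early change by 1.34 to 2.59 in the CDAA arrays and by 4.92 in Std 3. In the 4 lower Std arrays this difference lay from −0.30 to 0.24. The means of Mpo, Elane and 4 late genes in those arrays lay below the median signal of all genes. Either change may therefore be understated, and how far this shaped the late and early difference was not tested. Between diets the late mean differed by 0.74 over all arrays and by 1.99 without Std 3. The early mean differed by −0.25 and 0.01, and the late change exceeded the early change by 0.99 and 1.98. With 1 array left out at a time the late difference ran from 0.36 to 1.99.

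**Figure D2:**
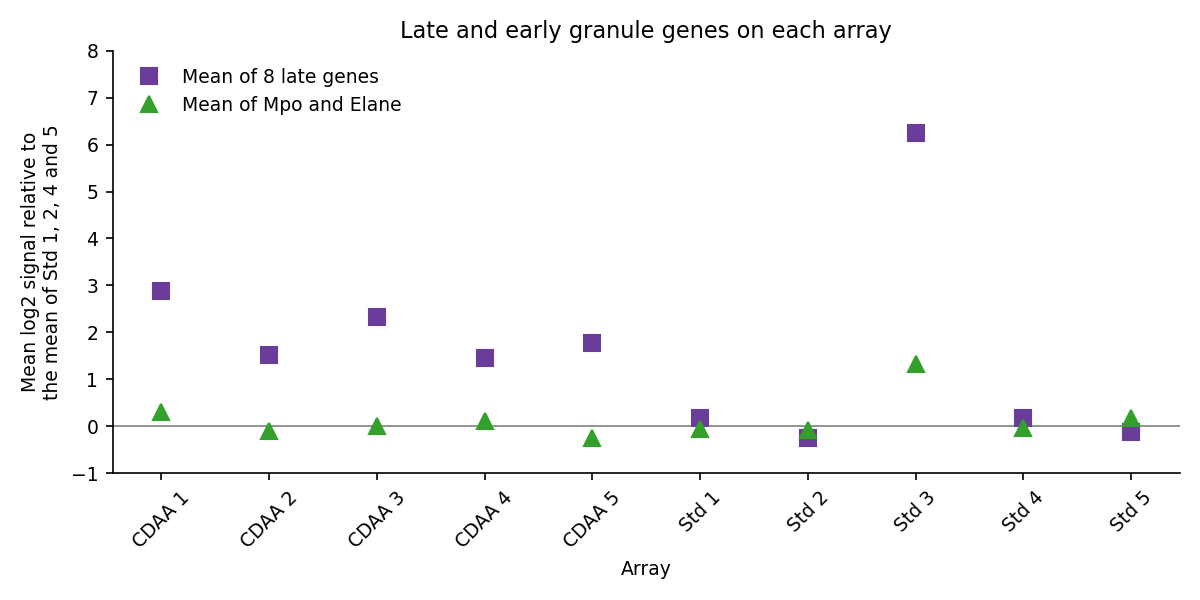
Mean log2 signal of the 8 late genes and of the early genes Mpo and Elane in each array, each as the difference from its own mean over the 4 Std arrays other than Std 3. The late mean of Std 3 is 6.25 and its early mean 1.33 above those arrays, both the highest of the 10 arrays, and all CDAA arrays lie above the other 4 Std arrays in the late mean but not in the early mean. Changes of dim genes, Mpo and Elane among them, may be understated.

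The order of the late genes by size of change is given for Std 3 and for the CDAA arrays side by side. Both are set against the same 4 Std arrays, so they share their controls. In Std 3 the excess ran, from high to low, in the order Ltf (7.81), Ngp (7.29), Lcn2 (6.65), S100a8 (5.92), Retnlg (5.89), Camp (5.69), Cd177 (5.43) and S100a9 (5.35). In the CDAA mean without Std 3 it ran in the order Lcn2 (3.82), S100a8 (2.64), S100a9 (2.56), Retnlg (1.99), Ngp (1.98), Ltf (1.48), Cd177 (0.89) and Camp (0.54). The 4 lowest in the second order, Ngp, Ltf, Cd177 and Camp, are the 4 whose level in the 4 lower Std arrays was below the median of all genes. Their differences may therefore be understated, and their places are uncertain in both orders. Retnlg, at a mean of 3.90 in those arrays, lay barely above that median of 3.89, so the same may hold for it. The neighbours S100a8 and S100a9, Retnlg and Ngp, Ngp and Ltf, and Cd177 and Camp in the second order differed by less than the root of their summed squared SEs. Std 3 is a single pool, so the error of its own order cannot be estimated and close places in it are uncertain. In Std 3, Lcn2 read 12.90, in the range of the bright LSEC markers, so its excess may be understated as well.

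**Figure D3:**
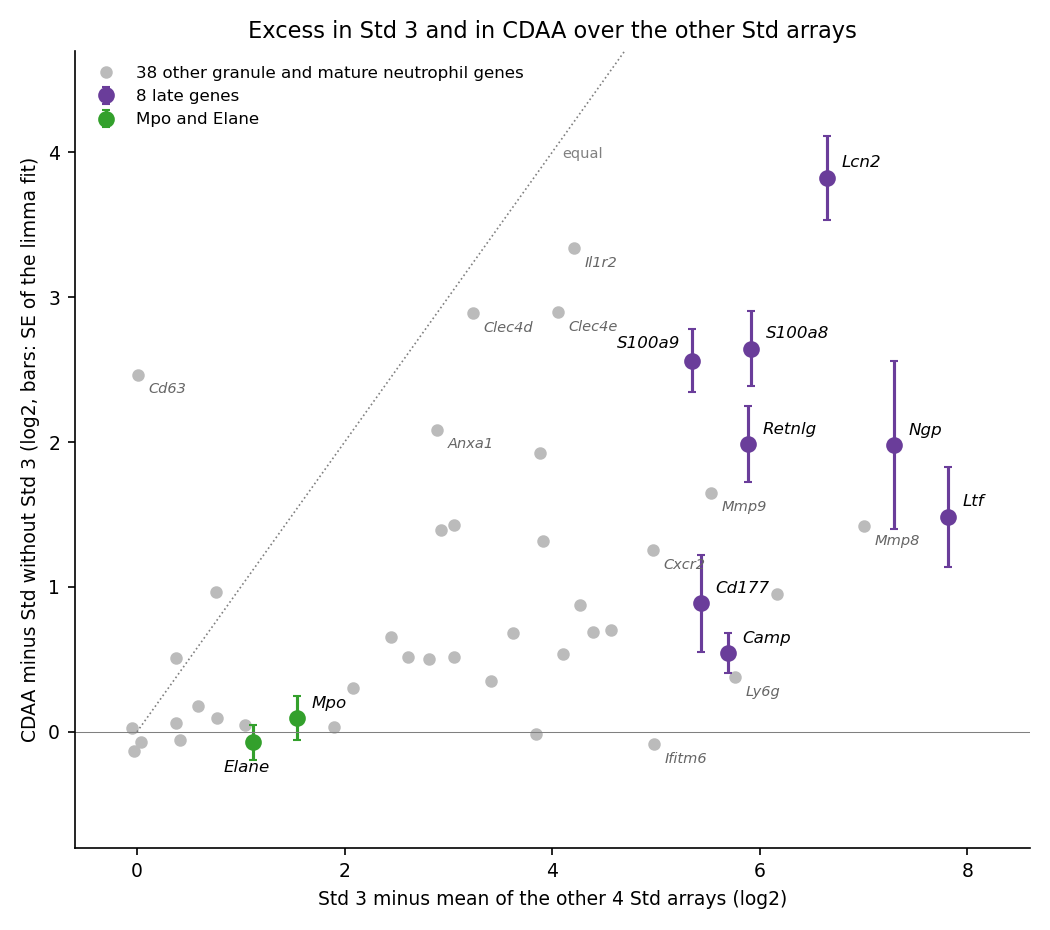
For each of the 10 genes, the CDAA minus Std difference without Std 3 against the excess of Std 3 over the mean of the other 4 Std arrays, both in log2 units and both relative to the same 4 arrays, with bars for the SE and grey points for 38 other granule and mature neutrophil genes. The dotted line marks equal values. On the Std 3 scale the 8 late genes lie from 5.35 to 7.81, on the CDAA scale they lie from 0.54 to 3.82, and Mpo and Elane lie near 0 on the CDAA scale. Dim genes may be understated on both.

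**Figure D4:**
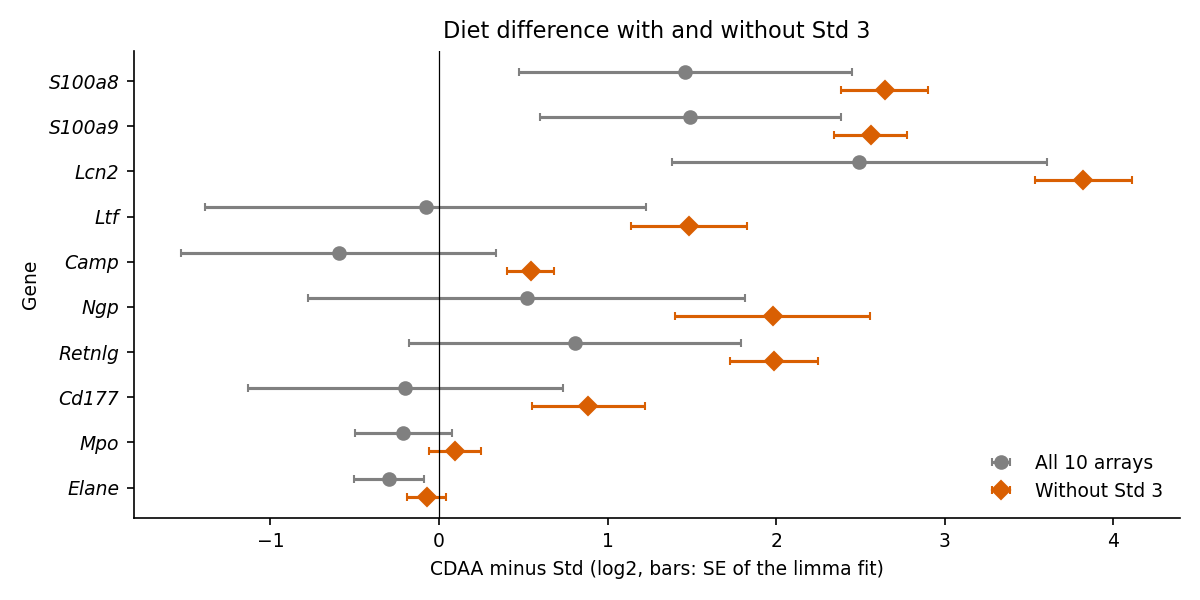
CDAA minus Std difference of each of the 10 genes in log2 units with its SE, with all 10 arrays and without Std 3. With all arrays the SEs are wide and the differences run from −0.59 in Camp to 2.49 in Lcn2, and without Std 3 they run from −0.07 in Elane to 3.82 in Lcn2.

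How far the Std 3 pattern extended was counted over all genes. In Std 3, 97 genes (0.393%) were more than 1 above the next highest array, 46 (0.186%) more than 2 and 20 (0.081%) more than 3. The corresponding counts were 70, 7 and 1 in CDAA 3, and no other array exceeded 13, 2 and 0. Of the 97, 9 were among the 10 granule genes, Elane being the exception, and 28 were among the 98 measured genes of 10 further neutrophil lists. The gaps directly below that of Ltf were those of Ly6g (4.87), the gene of the classical neutrophil surface antigen, then Camp (4.83), the collagenase gene Mmp8 (4.80) and Ifitm6 (4.68). Ifitm6 was picked out after its value was seen.

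The neutrophil markers outside the 10 genes were checked as a list of 6 (Ly6g, Csf3r, Cxcr2, Mmp8, Stfa2l1 and Trem1). Their mean was 8.71 in Std 3, 3.69 to 4.00 in the other 4 Std arrays and 4.49 to 5.57 in the CDAA arrays, and Std 3 was the highest array for 6 of 6. With all arrays 0 of the 6 passed limma's adjusted p of 0.05 and 0 had an unadjusted p under 0.05. Without Std 3, 4 of the 6 rose. Ly6g was not one of them: it measured 2.75, 2.95, 3.63, 3.61 and 2.69 in CDAA 1 to 5, and 2.86, 2.56, 8.51, 2.84 and 2.73 in Std 1 to 5. Outside Std 3 the Ly6g signals of both diets lay together below the median of all genes (without Std 3, 0.38 ± 0.21, limma adjusted p = 0.274). Csf3r, the receptor of granulocyte colony-stimulating factor, was 7.13 to 7.97 in CDAA and 5.98 to 6.37 in the 4 lower Std arrays, and rose without Std 3 by 1.39 ± 0.18 (limma adjusted p = 0.000559). With Std 3, at 9.07, its difference was 0.81 ± 0.50 (adjusted p = 0.337). In bulk isolates such as these, fewer cells of a type and less RNA per cell cannot be told apart.

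Other cell types were read in the same arrays, since several late genes are not made by neutrophils alone. The 6 recruited macrophage markers (Trem2, Gpnmb, Itgax, Mmp12, Cd9 and Fabp5) averaged 8.68 to 9.78 in CDAA and 5.16 to 5.54 in Std, and 6 of 6 rose with all arrays. Std 3 was 0.25 above the mean of the other Std arrays in that list. The 7 monocyte markers averaged 5.13 to 6.45 in CDAA, 4.10 to 4.35 in the 4 lower Std arrays and 5.28 in Std 3, and 4 of 7 rose with all arrays. Ly6c2, the monocyte marker with the highest Std 3 excess (3.88), was looked at after the values were seen. The 9 eosinophil, basophil and mast cell markers averaged 2.73 to 2.93 in CDAA, 2.70 to 2.83 in the 4 lower Std arrays and 3.01 in Std 3. The 4 measured erythroid markers averaged 2.79 to 3.18, 2.63 to 3.14 and 3.50 in the same order. In both lists Std 3 was the highest of the 10 arrays. The 4 measured B cell markers averaged 4.34 to 4.74 in CDAA, 4.41 to 4.59 in the 4 lower Std arrays and 4.64 in Std 3. The 6 T and NK cell markers averaged 4.90 to 5.28 in CDAA and 4.25 to 5.72 in Std, and the 6 hepatocyte markers 7.42 to 8.85 and 7.42 to 8.13, with 7.53 in Std 3. The 6 cholangiocyte markers (Epcam, Krt19, Krt7, Sox9, Krt8 and Krt18), of the bile duct epithelium, averaged 7.32 to 8.23 in CDAA, 4.55 to 5.69 in the 4 lower Std arrays and 5.47 in Std 3, and 6 of 6 rose with all arrays. The 6 stellate cell markers averaged 6.67 to 8.23 in CDAA and 5.90 to 6.33 in Std, and 3 of 6 rose. The 7 Kupffer cell markers averaged 7.90 to 8.77 in CDAA and 8.44 to 9.61 in Std, and 4 of 7 fell. The part of macrophages, monocytes, hepatocytes, bile duct or stellate cells in the CDAA signal of S100a8, S100a9 and Lcn2 was not tested.

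Further granule genes of the same classes were read from lists. Counts in every list, above and below, are to be read beside the shares of all genes. These were 7.49% higher and 9.13% lower in CDAA with all arrays, and 7.06% and 7.91% without Std 3. Std 3 was the highest array for 9.89% of all genes. Counts and p-values without Std 3 are descriptions, since Std 3 was singled out for its values in genes like these. Of 6 other azurophil genes, 1 rose and 0 fell with all arrays, with a median difference of 0.01, and Std 3 was the highest array for 1 of 6. Prtn3, proteinase 3, lay at 3.52 to 4.83 in CDAA and 3.63 to 4.31 in the 4 lower Std arrays, with 4.83 in Std 3 (difference −0.06 ± 0.25, limma adjusted p = 0.914). Ctsg, cathepsin G, lay at 2.60 to 3.48 in CDAA and 2.82 to 3.43 in Std, Std 3 included at 3.00 (difference 0.04 ± 0.17, adjusted p = 0.920). The azurophil gene that rose was Cd63, a lysosomal membrane tetraspanin found in many cell types, by 2.46 ± 0.22 (adjusted p = 4.6e-05), and its Std 3 signal of 5.10 was among the other Std signals of 4.54 to 5.39.

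Of 11 other specific and gelatinase granule genes measured, 0 passed limma's threshold with all arrays and 2 had an unadjusted p under 0.05. Without Std 3, 6 of the 11 rose and 0 fell, with a median difference of 0.95 against −0.02 for all genes, and Std 3 was the highest array for 10 of 11. Mmp9, gelatinase B and the namesake of gelatinase granules, lay at 6.25 to 7.18 in CDAA, 4.59 to 5.37 in the 4 lower Std arrays and 10.57 in Std 3. Its difference was 0.54 ± 0.92 over all arrays (limma adjusted p = 0.770) and 1.65 ± 0.22 without Std 3 (adjusted p = 0.000692). Mmp8, neutrophil collagenase, lay at 4.22 to 5.64, 3.18 to 3.70 and 10.44 in the same order, with 0.02 ± 1.17 over all arrays (adjusted p = 0.994) and 1.42 ± 0.29 without Std 3 (adjusted p = 0.00811). Anxa1, a calcium-dependent phospholipid-binding protein abundant in gelatinase granules but not restricted to neutrophils, lay at 8.90 to 10.01, 7.18 to 7.60 and 10.32. Its difference was 1.51 ± 0.51 over all arrays (adjusted p = 0.0646) and 2.09 ± 0.22 without Std 3 (adjusted p = 0.000167).

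Of 21 measured surface and cytoplasmic genes of mature neutrophils, 2 rose and 0 fell with all arrays, and 10 rose and 0 fell without Std 3. Std 3 was the highest array for 18 of the 21. Il1r2, the decoy receptor of interleukin 1, lay at 5.59 to 7.40 in CDAA, 3.03 to 3.55 in the 4 lower Std arrays and 7.51 in Std 3. It rose by 2.50 ± 0.75 with all arrays (limma adjusted p = 0.0399), a call lost when any 1 array other than CDAA 2 or Std 3 was left out. Over all fits with 1 array left out, the Il1r2 difference ran from 2.22 to 3.34, the highest without Std 3 (adjusted p = 0.000159). Clec4d, a C-type lectin of myeloid cells, lay at 5.95 to 7.29, 3.43 to 4.03 and 6.92, so that CDAA 1 and CDAA 3 exceeded Std 3. It rose by 2.24 ± 0.59 (adjusted p = 0.0210), a call lost without CDAA 1, Std 1, Std 2, Std 4 or Std 5. Over all fits with 1 array left out, the Clec4d difference ran from 2.02 to 2.89, the highest without Std 3 (adjusted p = 0.000132). Cxcr2, the chemokine receptor that brings neutrophils to tissue, lay at 5.54 to 6.74, 4.11 to 5.12 and 9.75, with 0.26 ± 0.84 over all arrays (adjusted p = 0.887) and 1.26 ± 0.26 without Std 3 (adjusted p = 0.00777).

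**Figure D5:**
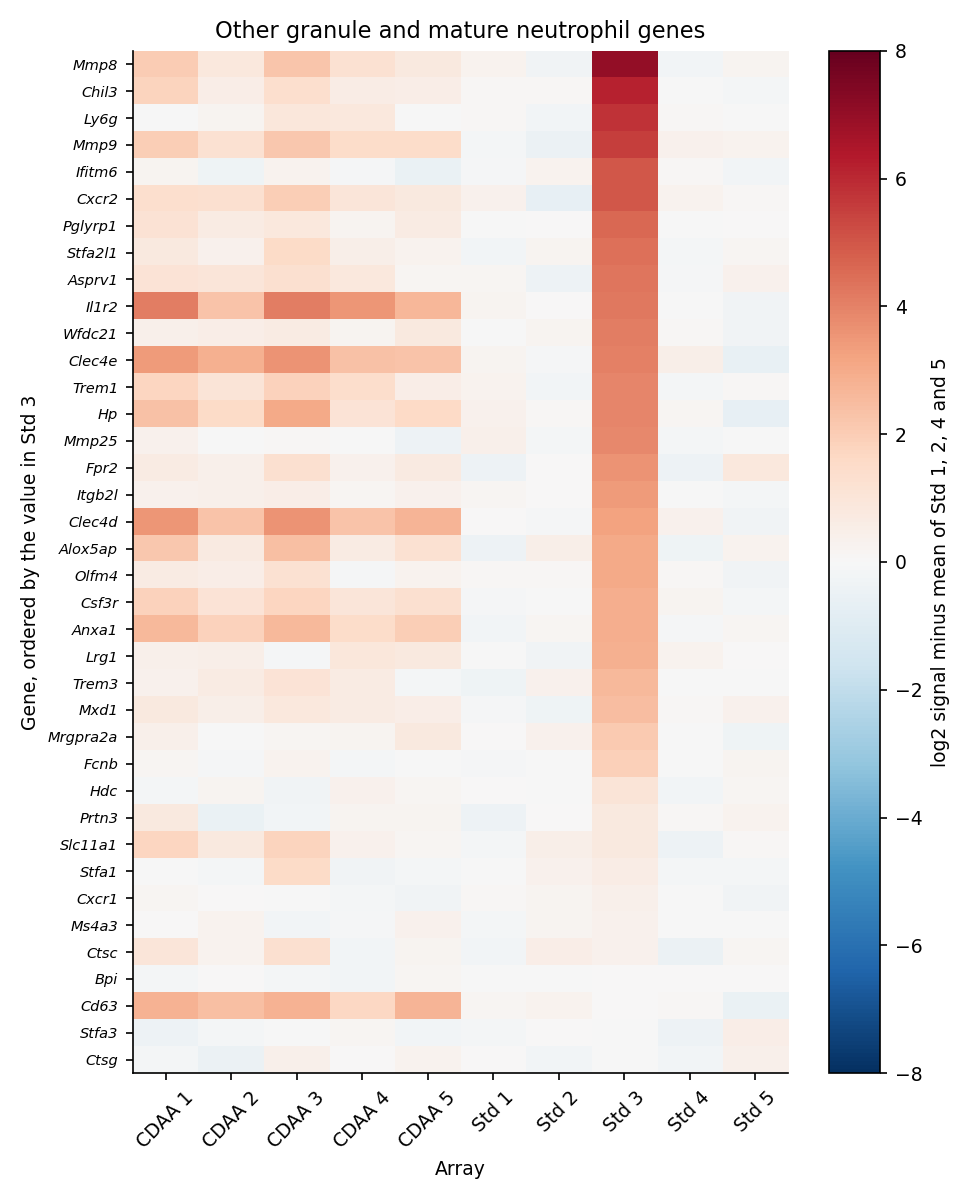
Log2 signal of the other 38 azurophil, specific or gelatinase granule and mature neutrophil genes in each array, as the difference from the mean of the 4 Std arrays other than Std 3. Std 3 is the highest column for 10 of 11 specific or gelatinase granule genes, 18 of 21 mature neutrophil genes and 1 of 6 azurophil genes, and Cd63 is high in the 5 CDAA columns.

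The profiles most like the mean late profile, by the root mean square difference over the 10 arrays after centring on the Std mean, were those of Mmp9 (0.383), Slfn4 (0.559), Osm (0.563), Mmp8 (0.625), Cxcr2 (0.627), Il1f9 (0.687), Mcemp1 (0.695) and Gda (0.71). Among the late genes themselves the measure ran from 0.291 in Retnlg to 1.30 in Lcn2, whose CDAA arrays lay higher than the late mean, and it was 1.54 in Mpo and 1.66 in Elane. Osm, the gp130 cytokine oncostatin M, lay at 4.81 to 6.09 in CDAA, 3.81 to 4.46 in the 4 lower Std arrays and 8.99 in Std 3. Likeness over 10 arrays is weighted heavily by Std 3.

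Of 11 transcription factors of granule formation and myeloid differentiation, 3 rose and 0 fell with all arrays, 5 rose without Std 3, and Std 3 was the highest array for 2 of 11. Cebpe, the factor required for specific granules, lay at 3.68 to 4.03 in CDAA and 3.78 to 4.45 in Std, Std 3 included at 4.21 (−0.19 ± 0.13, limma adjusted p = 0.383). Gfi1, a repressor needed for granulocyte differentiation, lay at 3.54 to 4.69 in CDAA and 3.79 to 4.13 in Std, lowest in Std 3 (0.11 ± 0.18, adjusted p = 0.764). The 3 that rose were Klf5 by 1.51 ± 0.33 (adjusted p = 0.00789), Cebpa by 1.06 ± 0.23 (adjusted p = 0.00821) and Irf8, better known from monocytes and dendritic cells, by 0.91 ± 0.18 (adjusted p = 0.00509). The Std 3 excess over the other Std arrays was 1.12 in Klf5, −0.14 in Cebpa and 0.12 in Irf8.

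The NADPH oxidase, which makes superoxide in phagocytes, was measured by 5 of its 6 listed genes. With all arrays 2 of the 5 rose and without Std 3 all 5 rose. Cybb, the catalytic subunit, rose by 1.31 ± 0.35 (limma adjusted p = 0.0235), a call lost without CDAA 1, CDAA 3, Std 1, Std 4 or Std 5. Over all fits with 1 array left out, the Cybb difference ran from 1.12 to 1.57, the highest without Std 3 (adjusted p = 0.00656). Cyba, its membrane partner, rose by 0.84 ± 0.19 (adjusted p = 0.00974). Macrophages express these genes as well. Std 3 was the highest of the 10 arrays for 2 of the 5 genes and the highest Std array for all 5. For Cybb and Cyba it was not the highest of the 10 (9.69 against 9.35 to 10.74 in CDAA for Cybb). The part of any cell type was not tested.

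Signals that recruit neutrophils were measured by 12 genes, of which 3 rose and 0 fell with all arrays, with a median difference of 0.50. Cxcl2, a ligand of Cxcr2, lay at 7.27 to 9.87 in CDAA, 3.45 to 4.66 in the 4 lower Std arrays and 7.99 in Std 3. It rose by 3.68 ± 0.77 with all arrays (limma adjusted p = 0.00692) and by 4.47 ± 0.47 without Std 3 (adjusted p = 0.000167). Cxcl5, another Cxcr2 ligand, rose by 1.41 ± 0.19 (adjusted p = 0.000475), and Std 3 at 2.95 lay among the other Std arrays. Cxcl1 lay at 5.49 to 8.38 in CDAA and 4.17 to 6.14 in Std and did not pass (1.42 ± 0.54, adjusted p = 0.100). C5ar1, the receptor of the complement fragment C5a, rose by 1.21 ± 0.34 (adjusted p = 0.0309). That call was lost when any 1 array other than CDAA 2, CDAA 4 or Std 3 was left out. Over all fits with 1 array left out, the C5ar1 difference ran from 1.02 to 1.54, the highest without Std 3 (adjusted p = 0.0018). Among 8 adhesion genes 2 rose with all arrays and 5 without Std 3. Sele, the endothelial selectin that lets leukocytes roll, rose by 1.40 ± 0.31 (adjusted p = 0.00929), and its Std 3 signal of 4.12 was among the Std signals of 3.70 to 4.65. Itgb2, the leukocyte integrin beta chain, rose by 1.70 ± 0.50 (adjusted p = 0.0369). That call too was lost when any 1 array other than CDAA 2, CDAA 4 or Std 3 was left out. Over all fits with 1 array left out, the Itgb2 difference ran from 1.45 to 2.19, the highest without Std 3 (adjusted p = 0.0018).

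Receptors of released granule proteins were measured by 8 genes, of which 1 rose and 1 fell with all arrays. Ly96, the MD-2 partner that Tlr4 needs to sense its ligands, fell by 2.03 ± 0.43 on the log2 scale (limma adjusted p = 0.00741), from 9.52 to 10.01 in Std to 6.34 to 9.21 in CDAA. Tlr4, a receptor for calprotectin, differed by −0.24 ± 0.13 (adjusted p = 0.269). Lrp1, an endocytic receptor that takes up lactoferrin, rose by 1.13 ± 0.33 (adjusted p = 0.0362), a call lost without CDAA 1, CDAA 3, Std 1, Std 4 or Std 5. Over all fits with 1 array left out, the Lrp1 difference ran from 0.87 to 1.32. Without Std 3 it was 1.20 (adjusted p = 0.0448). Among 7 measured protease inhibitors 1 rose and 2 fell. They were the antitrypsin genes Serpina1c (2.19 ± 0.24, adjusted p = 0.000157), Serpina1d (−2.22 ± 0.29, adjusted p = 0.000449) and Serpina1e (−0.94 ± 0.17, adjusted p = 0.00269), near-identical copies whose probes may not tell them apart, so their single values are uncertain. Over all 10 lists, 15 of 98 measured genes rose and 3 fell with all arrays, against 7.49% and 9.13% of all genes. Without Std 3, 41 rose and 4 fell, against 7.06% and 7.91% of all genes. Std 3 was the highest array for 46 of the 98 (46.9%), against 9.89% of all genes.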

How the data were processed

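RNA of 10 pooled LSEC isolates (5 CDAA, 5 Std) was hybridised as biotin-labelled cRNA to Affymetrix arrays, per the labels' protocols. The authors' deposited table holds log2 signals made with RMA, per the submitters' processing notes, and the RMA version and the genome build of the array are not given in the sources used here. These values were used as deposited, with no further normalization. Of 25428 probe sets, 24705 had 1 gene symbol in the platform annotation, 0 had several and 723 had none. For the 1 gene with more than 1 probe set, the set with the highest mean was kept, which left 24704 genes. No depth or detection call is attached, so the number of arrays limits the precision, and signals near the bottom of the scale may be background.

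CDAA and Std were compared across all genes with limma 3.58.1 (lmFit and eBayes, two-sided, Benjamini-Hochberg adjustment over 24704 genes, threshold 0.05) in R 4.3.3, and the procedure was tested on simulated data. The labels call the samples biological replicates. They were grouped by the diet in their titles. The duration is 10 weeks in the titles and protocol, while 1 label field gives it in days, and the weeks were used. The genes and lists were chosen with earlier results of these data known. Beside the 10 genes, the text names a fixed set of neutrophil genes, up to 4 genes a list with the largest differences past the threshold (or the smallest p where none passed), and the 8 profiles most like the late mean. Genes said to be picked after their values were seen lie outside that rule. Alternatives changed the normalization, the variance model, the array weights, the filter on dim genes, the replicate number as a block, and the arrays used. Promoters came from RefSeq (GRCm38.p6), and all 10 genes were matched.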

Additional observations from a re-analysis of the deposited data

Results flagged for a closer look

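Each value here is the gap of the highest or lowest array of a diet to its nearest neighbour, divided by the range of the 5 arrays, and is given where it exceeds 0.71. Of 168 groups 32 had such a value. Chance gives about 1 in 20 groups, but these include the 10 granule genes, their means and genes selected for a like profile, all chosen from these values, so the number is a description and is not set against chance. Std 3 was the high array in 27 of the 32.

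Among the granule genes the ratio in Std was 0.987 for Ltf, 0.981 for Camp, 0.911 for Retnlg, 0.903 for S100a9, 0.895 for S100a8, 0.868 for Cd177, 0.865 for Ngp, 0.806 for Lcn2 and 0.766 for Elane, each with Std 3 high. It was 0.935 for the late mean, 0.809 for the early mean and 0.897 for late minus early. Among the other neutrophil genes Std 3 was high with ratios of 0.949 in Ly6g, 0.929 in Mmp8, 0.884 in Il1r2, 0.873 in Csf3r, 0.869 in Mmp9, 0.866 in Anxa1, 0.828 in Clec4d and 0.821 in Cxcr2. In the genes found by their likeness to the late mean, which were selected on profiles that Std 3 dominates, the ratio was 0.937 in Slfn4, 0.919 in Il1f9, 0.888 in Gda, 0.88 in Mcemp1 and 0.873 in Osm. It was 0.808 in C5ar1 and 0.733 in Cxcl2.

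The other 5 values lay elsewhere. CDAA 1 was high among the CDAA arrays in Retnlg (0.779) and low in Tlr4 (0.711). CDAA 3 was low in Cebpe (0.845) and high in Vsig4 (0.848), a Kupffer cell receptor. Std 2 was high in Tlr4 (0.802). A cause was not tested for any of these values.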

How the results depend on the processing

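Over all genes 4106 passed the threshold, 2956 to 4572 with 1 array left out, 2612 without CDAA 1 and CDAA 3, and 2689 without these and Std 3, a setting chosen after seeing the data. Of the 10 granule genes 0 passed under every change of normalization, variance model, weights or filter, 0 to 7 with 1 array left out (7 only without Std 3) and 6 without CDAA 1, CDAA 3 and Std 3. Of the 98 genes of the neutrophil lists 18 passed, 12 to 45 with 1 array left out (45 without Std 3), 11 without CDAA 1 and CDAA 3, and 37 without these and Std 3. With the replicate number as a block 31 passed, among them 6 in place of 3 granulopoiesis factors, 6 in place of 3 recruitment signals and 4 in place of 2 adhesion genes. Nothing in the labels says that a number marks shared pools. Same-numbered arrays deviated together with correlations of 0.02, 0.14, 0.23, 0.25 and 0.10 for numbers 1 to 5, and 3 of 5 matched their own number best, which is a hint of pairing for some numbers and not for all, so the block was kept as an alternative. The late mean difference of 0.74 was 0.33 without CDAA 1 and CDAA 3 and 1.58 without these and Std 3, and the late minus early difference of 0.99 was 0.68 and 1.66. With array weights they were 1.04 and 1.19. Each alternative value of the 10 genes was judged by its shift from the main difference, against the SD pooled over both diets. Std 3 makes that SD wide, and the shift stayed within it for all 190 values. Even so, 14 of the values, in 5 genes, changed sign. Without Std 3 the sign turned in Ltf (1.48), Camp (0.54), Cd177 (0.89) and Mpo (0.10), and without CDAA 1, CDAA 3 and Std 3 in Ltf (0.94), Camp (0.34) and Cd177 (0.41). With array weights it turned in Ltf (0.32) and Cd177 (0.02), without CDAA 2, CDAA 4 or CDAA 5 in Ltf (0.02 to 0.10), and without CDAA 1 and CDAA 3 (−0.46) or without Std 5 (−0.01) in Ngp. Of 71 other named genes, 50 passed, and 40 of these did so under all 19 alternatives that gave a value. The cause of these shifts was not tested. Signal over background is not known and limits Mpo, Elane and the dim late genes most.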

Other observations

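Acute-phase genes encode proteins that the liver releases in inflammation. Std 3 was the highest array for 6 of 12, and their mean was 5.99 in Std 3, 4.24 to 4.68 in the other 4 Std arrays and 4.59 to 5.35 in the CDAA arrays. The excess of Std 3 over the other 4 Std arrays was uneven. Its median over the 12 genes was 0.77, and single genes ran from −0.92 to 3.88. With all arrays 0 of 12 passed limma's adjusted p of 0.05, and 5 had an unadjusted p under 0.05. Without Std 3, 3 of 12 rose and 0 fell. The list shares Hp with the specific and gelatinase granule list and Serpina3n with the protease inhibitor list, so it is not separate from them. Both shared genes were among those that rose without Std 3, and the excess of 3.88 was that of Hp. Saa1 and Saa2, near-identical serum amyloid A genes whose single values are uncertain, were 3.76 and 3.67 above the other 4 Std arrays in Std 3. Saa3, the serum amyloid A gene of macrophages and other cells outside hepatocytes, was 0.49 above them, and lay at 3.15 to 5.01 in CDAA and 2.99 to 3.59 in Std (0.78 ± 0.27, limma adjusted p = 0.0722). Saa1, Saa2 and Serpina3n were picked out after their values were seen.

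Haptoglobin (Hp), which neutrophils store in specific granules and hepatocytes secrete, lay at 6.61 to 8.50 in CDAA, 4.87 to 5.87 in the 4 lower Std arrays and 9.38 in Std 3. Its difference was 1.15 ± 0.71 with all arrays (limma adjusted p = 0.330) and 1.92 ± 0.35 without Std 3 (adjusted p = 0.00414). Hp and the removal of Std 3 were both picked out after the values were seen, so the p-value without Std 3 is a description.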
